A study of Mus musculus with 31 samples.

Results

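The genes described here belong to enzyme families known for foreign-compound metabolism and were transcribed in mouse brain at a countable level. The families are cytochromes P450 (Cyp), carboxylesterases (Ces), flavin monooxygenases (Fmo), glutathione transferases (Gst) and UDP-glucuronosyltransferases (Ugt). Not every member acts on foreign compounds. Members were chosen by symbol, without pseudogenes named -ps and antisense genes named os, and by a count of 10 or more in at least 13 of the 31 libraries. Of 170 genes with such names, 49 met the count rule, of 48795 genes in the table. They were 27 of 100 Cyp genes, 17 of 22 Gst genes, 3 of 7 Fmo genes, 1 of 19 Ces genes and 1 of 22 Ugt genes.

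The study measured brain RNA after developmental exposure to deltamethrin, a pyrethroid insecticide. Total RNA from aliquots of homogenised mouse brain tissue was sequenced in 31 libraries, 13 whose agent label is control and 18 whose label is deltamethrin. The labels give no strain, sex, age, dose, route, vehicle, litter or batch, so each group is known by its agent alone. They also do not say that the samples are separate animals, so every p-value measures the spread between these libraries, which may be partly technical.

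Enzymes of this kind work in stages. P450s and flavin monooxygenases oxidise a compound, carboxylesterases split esters such as those of pyrethroids, and transferases then join glutathione or a sugar to the product so that it can be exported. Most of this capacity lies in liver, and brain uses many relatives of the same enzymes for its own substrates, such as cholesterol, fatty acids, retinoic acid and myelin lipids.

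Most of the classic drug-metabolising genes did not reach the count rule. Among the 49 names of P450 families that oxidise drugs and toxicants, 3 were members: Cyp2d22, Cyp2t4 and Cyp1b1. Of the 121 names left out, 32 had no count in any library, 79 were counted but stayed under 10, and 10 reached 10 in some library. Cyp1a2 and Cyp1a1, both induced through the aryl hydrocarbon receptor, had no count and at most 7 counts per library, and the liver carboxylesterase Ces1d had at most 6. At the edge of the rule, Cyp3a13 had 10 counts in 12 libraries and Ugt1a7c in 11, while the weakest members, Cyp27b1 and Cyp4b1, had them in 16 and 21. At these depths 3 counts, the upper limit that a count of 0 allows, correspond to 0.0776 to 0.171 CPM on unscaled library totals. CPM is the count scaled to a fixed library total, and this limit covers counting error only. CPM values below use library sizes scaled by TMM factors. Where the factor is under 1, as in control replicate 2 (0.613), the limit is higher in those units.

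Libraries held 17570311 to 38680621 counts, and the 49 genes took 0.0459% to 0.0940% of them. Mitochondrial ribosomal RNA (mt-Rnr1 and mt-Rnr2) took 7.32% to 40.2% of a library, the most in control replicate 2. The markers of neurons, astrocytes, oligodendrocytes, microglia and vessels were all counted in every library. Liver markers summed to 0.363 to 1.76 CPM and olfactory epithelium markers to 0.920 to 2.63, with 1 of the olfactory markers at 0 everywhere. All 465 pairs of libraries differed by more than sampling noise, the most alike pair having a chi-square of 6.38 per degree of freedom.

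Glutathione transferases dominated the RNA of these families. As RPKM, which is CPM per kilobase of exon on library sizes scaled by TMM, the 17 Gst genes made up 76.4% of the summed level of the members, the 27 Cyp genes 20.97%, and Ugt8a 2.23%. The 5 highest members were Gstp1 at 90.3 RPKM, Gstm5 at 83.2, Gstm1 at 62.0, Cyp46a1 at 35.1 and Gsta4 at 24.9, and the lowest was Cyp27b1 at 0.118. These are means over all 31 libraries, and the plot of levels by library shows how far each gene's libraries spread.

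**Figure D1:**
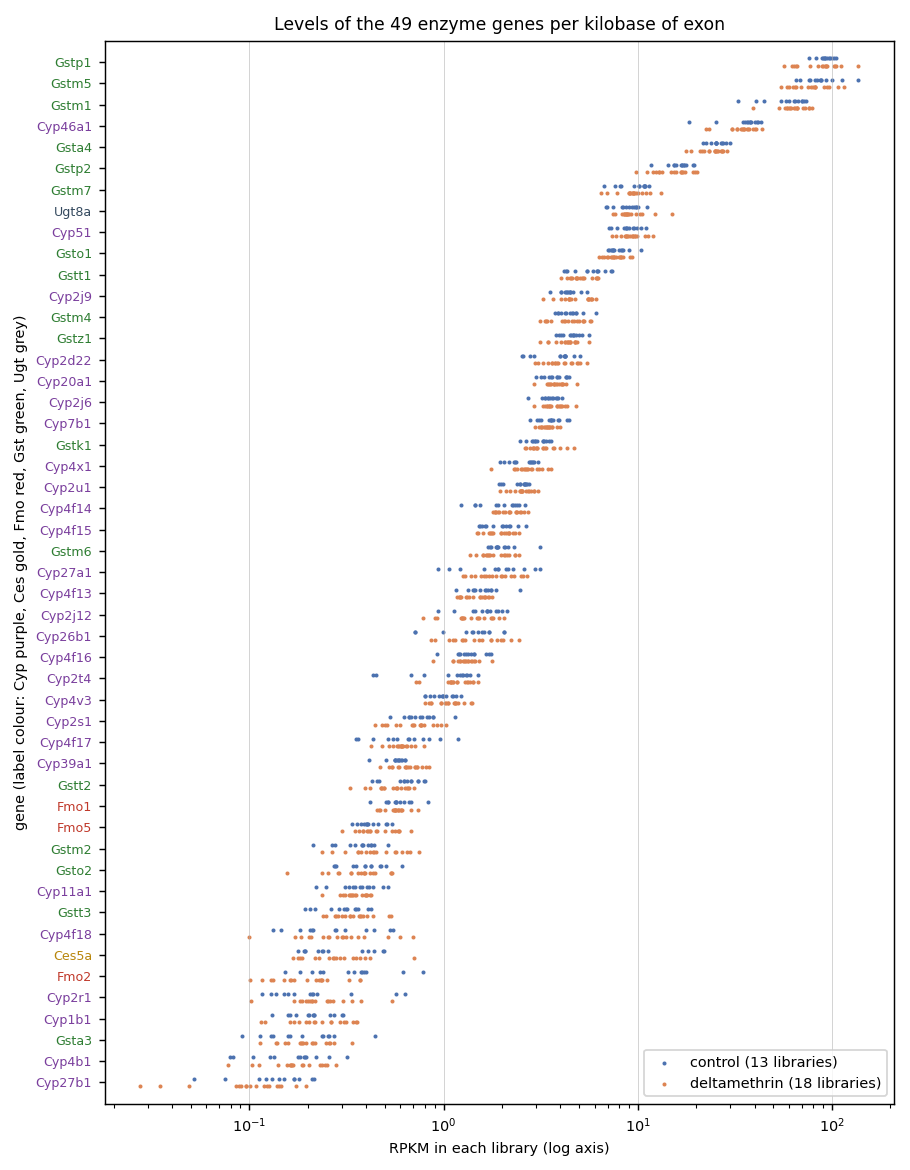
Level of each of the 49 genes in each library, in RPKM on a log axis, with control libraries in blue and deltamethrin libraries in orange and genes ordered by their mean. The highest rows are Gstp1, at a mean of 90.3 RPKM, Gstm5 and Gstm1, followed by Cyp46a1 and Gsta4. The 2 colours overlap in every row, and the 1 control library with no Cyp27b1 count is not drawn.

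Between the lowest and the highest library a member differed by 1.57-fold (Cyp7b1) to 7.84-fold (Fmo2), with a median of 2.23-fold over the 48 members that were counted in every library. The biological coefficient of variation, edgeR's estimate of the spread between libraries beyond counting noise, had a median of 17.1% over the members and 18.3% over all genes tested.

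The question of the design is whether these genes differ between deltamethrin and control. With edgeR's quasi-likelihood test on all 19529 genes that passed its count filter, which kept all 49 members, none of the 49 had an adjusted p under 0.05. Over all genes tested, 0% had an adjusted p under 0.05. The smallest adjusted p was 0.813 among the members and 0.441 among all genes. DESeq2 and limma voom also called 0 members, with 3 and 2 at an unadjusted p under 0.05. At an unadjusted p under 0.05 there were 3 of 49 members (6.12%) against 4.37% of all genes: Fmo2 and Gstt2 on the lower side (2.37% of all genes) and Cyp39a1 on the higher side (2% of all genes). Without any 1 library there were 2 to 5, the 5 without deltamethrin replicate 4 or 8.

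The members as a whole were centred on no difference. There were 24 with a higher and 25 with a lower mean in deltamethrin, with a median log2 fold change of -0.01 beside 0.00 over all genes. Control and deltamethrin libraries overlapped for every one of the 49 genes. The share over all genes was not computed, so this overlap does not set the members apart. The 95% interval of the fold change lay within 1.5-fold in either direction for 45 members and within 2-fold for 48, the exception being Fmo2. The plot of fold changes shows these intervals.

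**Figure D2:**
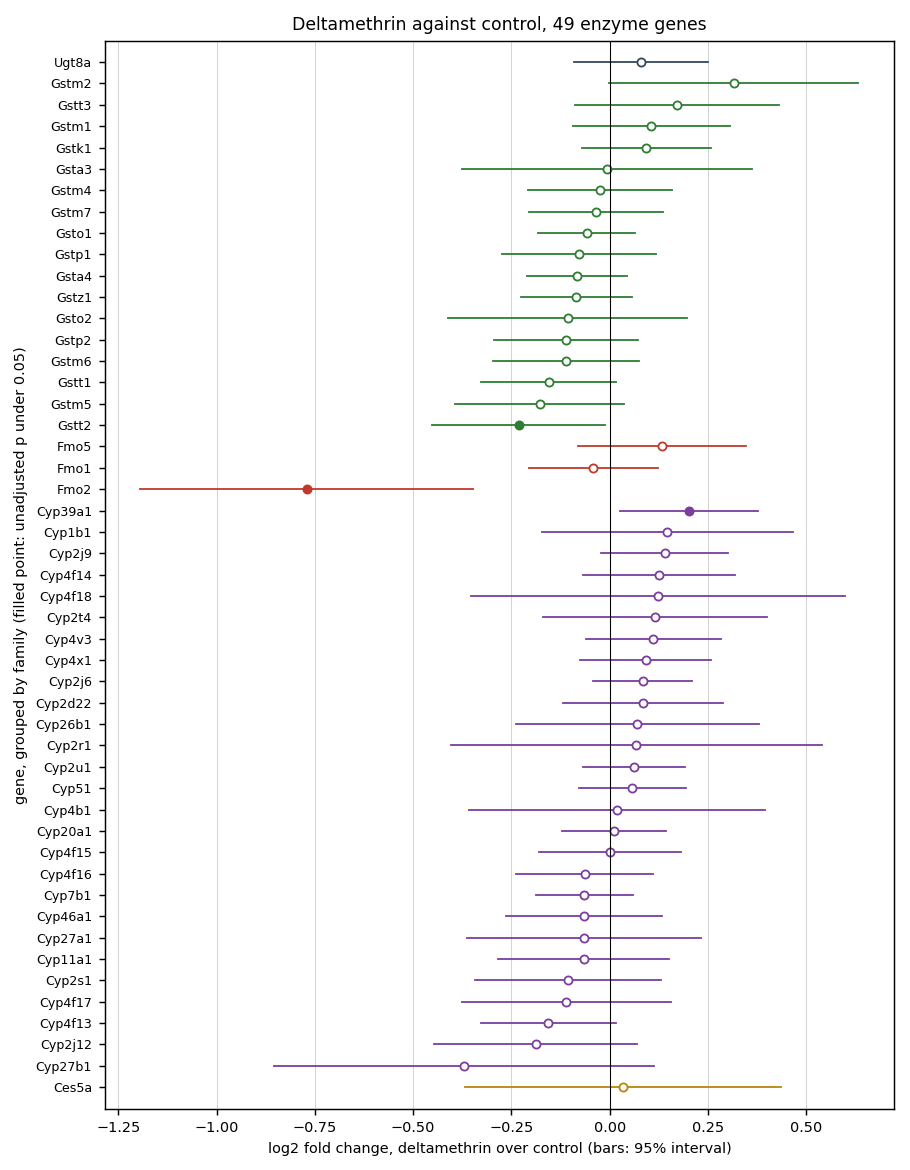
Log2 fold change of each gene, deltamethrin over control, with its 95% interval as a bar, grouped by family, and a filled point where the unadjusted p was under 0.05. Fmo2 lies apart from the other members at -0.77, and 13 of the 17 Gst points lie left of 0.

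The flavin monooxygenases hold the largest difference. These enzymes add oxygen to nitrogen and sulphur atoms of drugs and amines. Fmo2 (chr1:162874317-162898726, minus strand, GRCm38, protein-coding) ranged from 0.859 CPM through a median of 1.94 to 4.41 in the 13 control libraries, and from 0.562 through 1.18 to 2.09 in the 18 deltamethrin libraries. Control replicates 3 and 8 lay above every other library, and 16 of the 18 deltamethrin libraries lay below the control median. The log2 fold change was -0.77 ± 0.21 (SE), with an unadjusted p of 0.000686 and an adjusted p of 0.813 in edgeR's quasi-likelihood test, so the difference did not pass correction over all genes. Leaving out any 1 library gave -0.84 to -0.62. Across all libraries the Pearson r of Fmo2 was at most 0.27 in size with each of 10 brain marker lists and 0.03 with the mitochondrial share, with no adjusted permutation p under 0.05.

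Its neighbours in the family differed less than the spread between libraries. Fmo1 had a log2 fold change of -0.04 ± 0.08 (SE) and Fmo5 of 0.13 ± 0.10, with medians of 3.596 and 3.57 CPM (control and deltamethrin) for Fmo1 and 2.30 and 2.45 for Fmo5. Without scaling factors the Fmo1 value was 0.00.

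**Figure D3:**
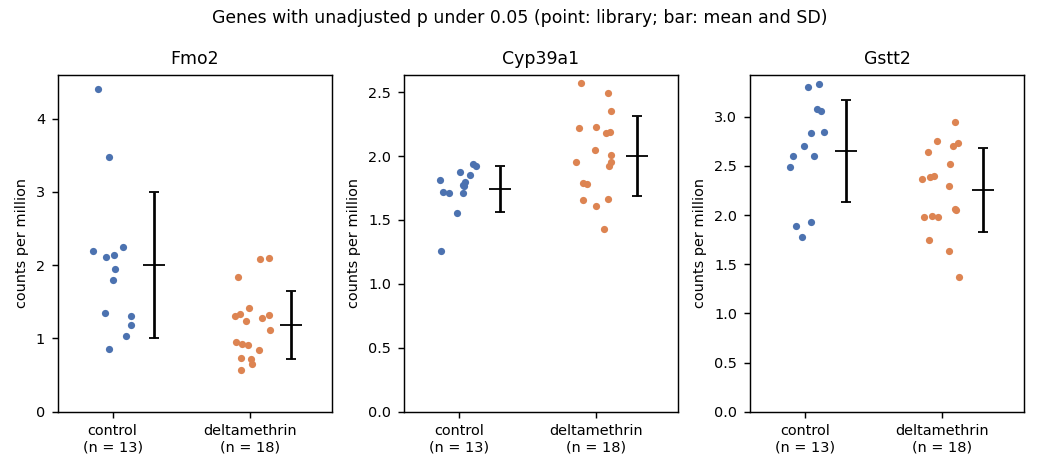
CPM of Fmo2, Cyp39a1 and Gstt2 in each library (points) with the group mean and SD (bars), 13 control and 18 deltamethrin libraries. The Fmo2 mean was 2.002 in control and 1.18 in deltamethrin, and for each of the 3 genes the groups overlap.

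Sterol enzymes were the most abundant P450s, with 12.2% of the members' summed RPKM from 5 genes. Cyp46a1, which turns cholesterol of neurons into an oxysterol that can leave the brain (chr12:108334381-108362234, plus strand), ran from 60.6 through a median of 123.9 to 141.4 CPM in control and from 73.8 through 114.9 to 142.6 in deltamethrin. Its log2 fold change was -0.07 ± 0.10 (SE), and the lowest libraries of both groups lay far under their medians. Cyp51, the demethylase of cholesterol synthesis, had medians of 38.9 and 40.6 CPM and a log2 fold change of 0.06 ± 0.07.

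Cyp39a1, which hydroxylates the oxysterol that Cyp46a1 makes (chr17:43667425-43751431, plus strand), was the P450 with the smallest p. It ranged from 1.26 through 1.77 to 1.93 CPM in control and from 1.43 through 1.98 to 2.57 in deltamethrin. Of the 18 deltamethrin libraries, 14 lay above the control median, and the groups overlapped over most of the control range. The log2 fold change was 0.20 ± 0.09 (SE), with an unadjusted p of 0.0247 and an adjusted p of 0.813 in edgeR's test. The other 2 sterol members, Cyp7b1 and Cyp27a1, had log2 fold changes of -0.06 ± 0.06 and -0.07 ± 0.15.

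The 14 P450s of fatty acids and eicosanoids, which oxidise these lipids, had 9 higher and 5 lower means. Their log2 fold changes ran from -0.19 to 0.14, none with an unadjusted p under 0.05. The highest per length were the epoxygenases Cyp2j9, at medians of 14.6 CPM in control and 15.5 in deltamethrin (log2 fold change 0.14 ± 0.08, SE), and Cyp2j6, at 12.8 and 13.4 (0.08 ± 0.06). Both pairs of medians differ by less than the range of either group.

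The 3 drug-oxidising P450s had means slightly higher in deltamethrin and intervals that include 0. Cyp2d22, the most abundant of them, had medians of 16.2 and 15.1 CPM and a log2 fold change of 0.08 ± 0.10 (SE), Cyp2t4 had 0.12 ± 0.14, and Cyp1b1, a target of the aryl hydrocarbon receptor, had 0.15 ± 0.16.

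P450s of retinoic acid and vitamin D made up 0.452% of the members' summed RPKM, and the 1 of steroid hormones 0.0872%. Cyp26b1, which degrades retinoic acid, had medians of 8.03 and 7.94 CPM and a log2 fold change of 0.07 ± 0.15 (SE). Cyp2r1, a vitamin D hydroxylase, had medians of 0.435 and 0.453, and Cyp11a1, which starts steroid synthesis from cholesterol, had 1.79 and 1.66. Cyp20a1, a P450 without an established substrate, had 8.77 and 8.56. None of these had an unadjusted p under 0.05.

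Glutathione transferases had 13 of 17 means on the lower side (76.5%, beside 49.5% of all genes tested), with a median log2 fold change of -0.08. The P450s had 17 of 27 on the higher side, with a median of 0.06. Genes of a family are measured in the same libraries and partly share sequence, so these are not counts of independent genes, and no test was made of them. Without scaling factors, a setting that shifted the median of all genes to 0.04, the Gst genes had 11 lower and 6 higher.

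Gstt2, a theta-class transferase (chr10:75831114-75837424, minus strand), was the member of the family with the smallest p. It ranged from 1.77 through a median of 2.70 to 3.33 CPM in control and from 1.37 through 2.33 to 2.94 in deltamethrin. The log2 fold change was -0.23 ± 0.11 (SE), with an unadjusted p of 0.0387 and an adjusted p of 0.813 in edgeR's test, and 15 of 18 deltamethrin libraries lay below the control median. The unadjusted p was under 0.05 in 6 of 10 alternative fits and in 19 of 31 fits without 1 library. Gstt2 followed the astrocyte markers inversely (r = -0.52, adjusted permutation p = 0.0214). Such a relation was common: 50.8% of all genes tested had an r of 0.44 or more in size with these markers. With the mitochondrial ribosomal RNA share taken out, as described below, the Gstt2 pair was not called. The astrocyte markers had higher means in deltamethrin for 8 of 8 genes, beside 9864 of all 19529 genes tested. Their summed levels ran from 1788 through a median of 2569 to 3355 CPM in control and from 1926 through 2842 to 5247 in deltamethrin. No astrocyte marker was at 0. The part of astrocytes in the Gstt2 value was not tested. In bulk tissue fewer cells of a type and less RNA per cell cannot be told apart.

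The mu class supplied the largest share of the summed level, 39.2% from 6 genes. Gstm5, the mu form typical of brain and testis (chr3:107895821-107898686, plus strand), ranged from 83.9 through 111.4 to 174.3 CPM in control and from 69.9 through 101.0 to 147.3 in deltamethrin (log2 fold change -0.18 ± 0.11, SE). An antisense gene covers 13.9% of its exon bases, so part of its counts may belong to that gene. Gstm1, an abundant mu form of liver and glia, ranged from 48.3 through 93.5 to 108.3 and from 57.7 through 94.0 to 115.9 (0.11 ± 0.10). The pair had means on opposite sides of 0, each within the spread of its libraries. Gstm2, a low mu form, had the largest positive log2 fold change of the 49 members, 0.32 ± 0.16 (SE), with an unadjusted p of 0.0502 and an adjusted p of 0.813 in edgeR's test. It ranged from 0.359 through 0.642 to 0.870 CPM in control and from 0.399 through 0.729 to 1.26 in deltamethrin, and 12 of 18 deltamethrin libraries lay above the control median. The unadjusted p of Gstm2 was under 0.05 in 5 of 10 alternative fits and in 13 of 31 fits without 1 library. Of the transcript sequence of Gstm1, 18.9% of windows of 50 bases also occur in other genes, so its counts may include reads of relatives.

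The remaining transferase classes also lay within the spread. Gsta4, which conjugates products of lipid peroxidation, had medians of 32.04 and 31.6 CPM (log2 fold change -0.08 ± 0.06, SE), and Gsta3, also an alpha form, 0.815 and 0.832 (-0.01 ± 0.18). Gsto1, an omega form that reduces dehydroascorbate, had 15.3 and 15.3 (-0.06 ± 0.06), and the theta form Gstt1 had 9.02 and 7.56 (-0.16 ± 0.08, unadjusted p = 0.0736 in edgeR's test).

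Ugt8a and Ces5a were the only members of their families. Ugt8a carries a glucuronosyltransferase name but makes galactosylceramide, a lipid of myelin, and it ranged from 31.3 through 40.8 to 50.5 CPM in control and from 34.0 through 40.02 to 67.7 in deltamethrin (log2 fold change 0.08 ± 0.08, SE). Ces5a, a secreted carboxylesterase, had medians of 0.683 and 0.787 (0.03 ± 0.20), and its sign turned in 5 of 31 fits without 1 library.

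The pi class is shown with upstream sequence because its 2 members stood next to each other in the genome and shared transcript sequence. Gstp1 (chr19:4035407-4037985, minus strand), a transferase for electrophiles and the member with the highest RPKM, ranged from 118.1 through 143.0 to 163.3 CPM in control and from 87.8 through 141.7 to 212.1 in deltamethrin. Gstp2 (chr19:4040285-4046023, minus strand) ranged from 13.1 through 18.8 to 21.6 and from 10.9 through 17.3 to 22.5. The deltamethrin libraries of Gstp1 spread to both sides of the control range, and the log2 fold changes were -0.08 ± 0.10 (SE) for Gstp1 and -0.11 ± 0.09 for Gstp2. Of the 50-base windows of Gstp2, 49.1% also occur in Gstp1, so the counting may have split or shared their reads. Their r across libraries was 0.77 (0.54 within control and 0.81 within deltamethrin), and that of Gsta4, which shares no such window, was 0.84 with Gstp1 and 0.82 with Gstp2. These values are given without a test.

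The 250 bases before the RefSeq start of each gene (GRCm38.p6, chr19:4037913-4038162 and chr19:4042222-4042471, both minus strand) follow, with the TGAGTCA motif, the site of AP-1 factors, in capitals. By the GENCODE extents given above, the Gstp2 stretch lies inside the gene and the Gstp1 stretch overlaps its end, so the annotations place the starts differently, and which start was used in these samples was not tested.
Gstp1: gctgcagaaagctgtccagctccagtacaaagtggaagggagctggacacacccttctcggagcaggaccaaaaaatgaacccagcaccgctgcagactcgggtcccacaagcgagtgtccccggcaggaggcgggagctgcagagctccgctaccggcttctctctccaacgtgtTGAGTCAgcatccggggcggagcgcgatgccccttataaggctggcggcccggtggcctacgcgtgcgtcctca
Gstp2: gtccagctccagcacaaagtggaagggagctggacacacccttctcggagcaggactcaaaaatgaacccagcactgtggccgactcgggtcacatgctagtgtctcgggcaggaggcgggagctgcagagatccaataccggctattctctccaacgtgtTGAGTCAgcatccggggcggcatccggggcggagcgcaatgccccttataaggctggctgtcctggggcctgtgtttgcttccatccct
The 2 stretches were identical in 207 of 265 aligned columns (78.1%), and the motif lay 74 to 68 bases before the start in Gstp1 and 89 to 83 bases before it in Gstp2.

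Across the 40 members with a RefSeq promoter of this length, TGAGTCA, searched on both strands, was present in 4 (10%): Cyp4f16, Gstm5, Gstp1 and Gstp2. It was present in 5.16% of the 27025 promoters in the table. The Gstp1 and Gstp2 stretches are the similar pair shown above (78.1% identical), so the 4 are not independent promoters. The core that the aryl hydrocarbon receptor binds, GCGTG, was present in 13 of 40 (32.5%, beside 30.9% of all promoters), among them Cyp1b1, Cyp46a1, Gstm1 and Gstp1. The core of the antioxidant response element, TGACNNNGC, was present in 5 of 40 (12.5%, beside 11.5%): Cyp4f14, Cyp4f18, Gsta3, Gstm5 and Gstm7.

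Genes that serve these enzymes were read in the same fit. In 6 lists of electron donors, receptors, antioxidant targets, other detoxifying enzymes, other esterases and transporters, 66 of 73 genes were tested and 0 had an adjusted p under 0.05 in edgeR's test. There were 28 higher and 38 lower means, with a median log2 fold change of -0.01. Of the genes tested, 4 (6.06%) had an unadjusted p under 0.05, beside 4.37% of all genes. Of 6 electron donors, Por, the reductase that feeds microsomal P450s, had a log2 fold change of -0.03 ± 0.10 (SE). Of 14 receptors and targets, 11 were tested, and Ahr had -0.03 ± 0.09. Nr1i2 and Nr1i3, the receptors of drug induction in liver, were among the 3 too low to test. Among 14 genes of the antioxidant regulator Nfe2l2 (itself 0.03 ± 0.07), Gclm, of glutathione synthesis, had 0.13 ± 0.06 and Gsr, which reduces oxidised glutathione, had -0.10 ± 0.04. Mgst3, a microsomal transferase, had -0.23 ± 0.10, Pon2, a lactonase, had 0.14 ± 0.06, and the efflux pump Abcb1a had 0.11 ± 0.14. Gclm, Gsr, Mgst3 and Pon2 were the 4 with an unadjusted p under 0.05, each with an adjusted p of 0.813 in edgeR's test.

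Part of the spread of the members between libraries followed the marker genes of brain cell types. Of 490 pairs of a member and one of 10 brain marker lists, 122 were correlated across the 31 libraries at an adjusted permutation p under 0.05 (100000 resamples, two-sided), which means an r of 0.44 or more in size. Over all genes tested 28.5% of pairs reached that size, beside 24.9% of the members' pairs. Without the 2 libraries farthest from the median of each score, 60 pairs were called, with 23 called within control and 50 within deltamethrin. For these settings the share over all genes was not computed. Across all 31 libraries 51.02% of members passed an r of 0.44 in size for astrocyte markers (50.8% of all genes). For neuron markers 38.8% passed (52.3%), and for oligodendrocyte markers 20.4% (9.74%). For microglia and choroid plexus markers 0 members passed, beside 3.74% and 3.57% of all genes.

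Gstm5 and Cyp26b1 had the strongest relations, in opposite directions. Gstm5 fell with the astrocyte score (r = -0.85, Spearman's rho = -0.81) and the neuron score (r = -0.85, rho = -0.85) and rose with the blood score (r = 0.84, rho = 0.82). Cyp26b1 rose with the astrocyte score (r = 0.82, rho = 0.79) and the neuron score (r = 0.81, rho = 0.85) and fell with the blood score (r = -0.77, rho = -0.71). Each of these had a permutation p of 1e-05, the smallest that the resamples can give, and an adjusted p of 0.000272 for r and 0.000408 for rho. Without the 2 libraries farthest from the median score, r was -0.83, -0.82 and 0.76 for Gstm5 and 0.78, 0.84 and -0.64 for Cyp26b1.

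Those scores also moved with the mitochondrial ribosomal RNA share: r was -0.89 for neurons, -0.86 for astrocytes and 0.78 for blood. Of the 49 members, 16 were correlated with that share at an adjusted permutation p under 0.05, 5 positively and 11 negatively (32.7% past an r of 0.46 in size, beside 49.6% of all genes). Gstm5 (r = 0.84, rho = 0.77) and Ces5a (r = 0.64, rho = 0.61) rose with it, and Cyp2d22 (r = -0.84, rho = -0.85), Cyp26b1 (r = -0.79, rho = -0.78) and Cyp46a1 (r = -0.74, rho = -0.68) fell. Within the groups r was 0.82 in control and 0.92 in deltamethrin for Gstm5, and -0.85 and -0.83 for Cyp2d22. Leaving out the 2 libraries whose share lay farthest from its median gave an r of 0.81 for Gstm5, 0.56 for Ces5a, -0.78 for Cyp2d22, -0.81 for Cyp26b1 and -0.57 for Cyp46a1. Blood markers had lower means in deltamethrin for 5 of 5 genes, beside 49.5% of all genes tested. Their summed levels ran from 492.2 through a median of 646.3 to 1670 CPM in control and from 380.5 through 630.2 to 1242 in deltamethrin. Ependyma markers were lower for 8 of 8 (13.5 through 18.9 to 35.3 and 12.2 through 16.2 to 24.2). Choroid plexus markers were lower for 10 of 11 (273.5 through 538.1 to 1328 and 253.6 through 470.1 to 737.3). None of these was at 0 in any library. Control replicate 2 had the highest blood and ependyma scores. Lower means were also found for 6 of 8 oligodendrocyte, 4 of 8 microglia and 2 of 8 neuron markers. The part of these cell types in the group values of Gstm5 and the other members, and what the mitochondrial share reflects, was not tested.

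With the mitochondrial share taken out of both sides by regression, an alternative chosen after seeing the data, 8 of the 490 pairs had an adjusted permutation p under 0.05. None of the 6 pairs of Gstm5 and Cyp26b1 was among them. The share over all genes was not computed for this setting, so the 8 pairs are not shown to be particular to the members. The 8 were Gstm6, Gstm7, Gstp2 and Cyp2j12 with oligodendrocyte markers (r from 0.58 to 0.75), Cyp2j9, Cyp4v3 and Ugt8a with astrocyte markers (0.60 to 0.71), and Cyp4f13 with neuron markers (-0.71).

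**Figure D4:**
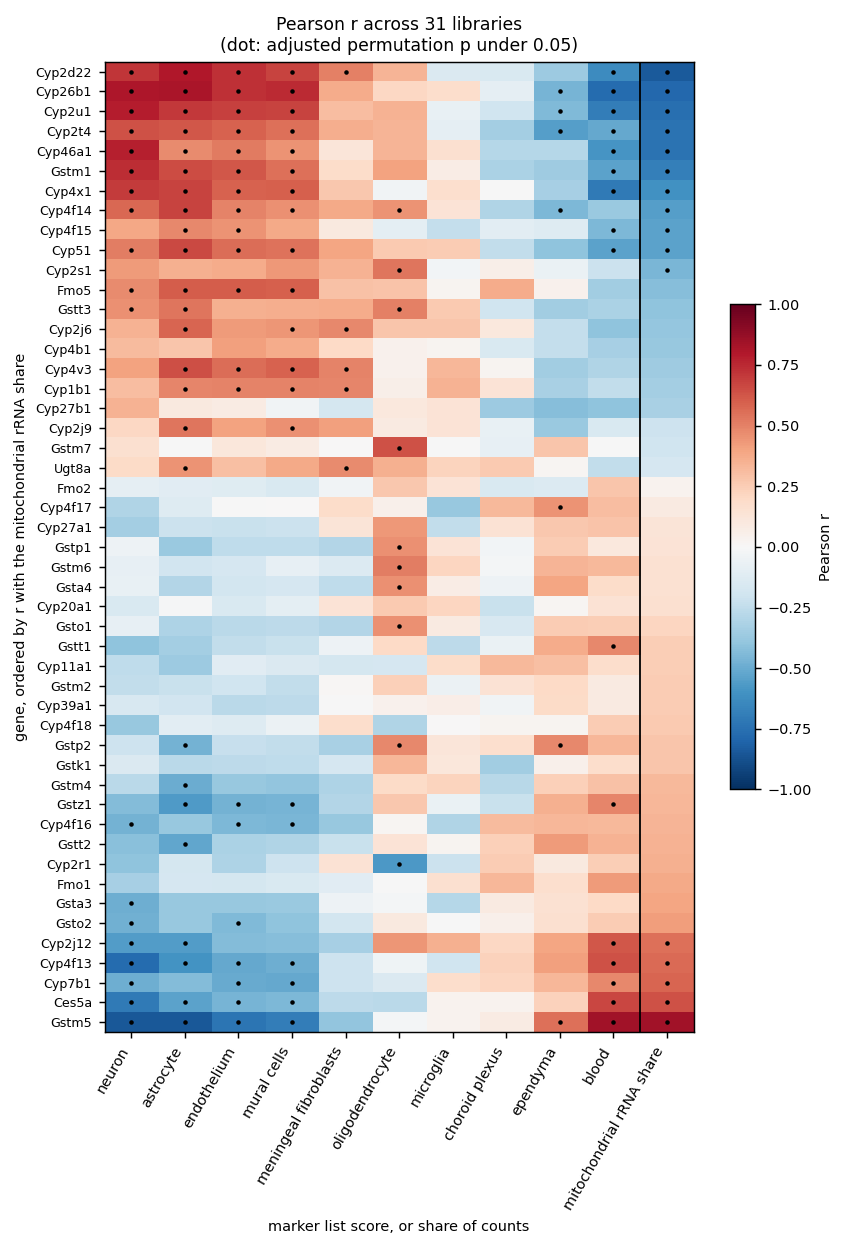
Pearson r across 31 libraries of each gene with 10 marker list scores and with the log2 share of mitochondrial ribosomal RNA, as colour from -1 to 1, with a dot where the adjusted permutation p was under 0.05. Genes at the top, such as Cyp2d22 and Cyp26b1, and genes at the bottom, such as Ces5a and Gstm5, have opposite signs for neuron, astrocyte and vessel markers.

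Sample titles carry a number from 1 to 31, whose meaning the labels do not give. In an edgeR fit with the group in the model, added after seeing the data, 2 of 49 members changed with that number at an adjusted p under 0.05, beside 6.24% of all genes. Without control replicate 2 there were 5, with Cyp1b1, Cyp27a1 and Cyp51 added, beside 7.17% of all genes, and with the mitochondrial share as a covariate there were 6, with Ugt8a as well, beside 17.9%. Gstp1 rose by 0.51 ± 0.14 (SE) on the log2 scale from number 1 to 31 (adjusted p = 0.0242 in edgeR's test), and Cyp4v3, a fatty acid hydroxylase, fell by 0.41 ± 0.12 (adjusted p = 0.0375). Without scaling factors the 2 called members were Gstp1 and Cyp27a1, beside 4.22% of all genes, and Cyp4v3 had an unadjusted p of 0.0622 and an adjusted p of 0.264 in edgeR's test. At an unadjusted p under 0.05 there were 16 members, 8 rising and 8 falling, beside 23.4% of all genes. That split depended on the scaling: without factors there were 13, 12 rising and 1 falling, beside 20.9% of all genes (3030 rising and 1061 falling). The mitochondrial share had an r of 0.04 with the number (rho = 0.075, permutation p = 0.827).

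Fitted within each group, the change of Gstp1 over that range was 0.71 ± 0.19 (SE, log2) in deltamethrin and 0.17 ± 0.17 in control. In the deltamethrin libraries it ran from 87.8 to 131.4 CPM at numbers 1 to 10 (6 libraries), 101.6 to 172.6 at 11 to 20 (5 libraries) and 138.2 to 212.1 at 21 to 31 (7 libraries). In control it ran from 118.1 to 159.2 (4 libraries), 138.0 to 155.3 (5 libraries) and 142.2 to 163.3 (4 libraries). Within a group no member passed adjustment (beside 1.5% of all genes in deltamethrin and 0% in control), and 10 members in deltamethrin and 2 in control had an unadjusted p under 0.05 (beside 21% and 7.16%). The difference between the groups' slopes had an unadjusted p of 0.04996 and an adjusted p of 0.814 for Gstp1 in edgeR's test, so a difference between the groups was not shown. Of all genes, 4.2% had an unadjusted p under 0.05 for that difference, as did 3 of the 49 members. With the number in the model, 0 members differed between deltamethrin and control after adjustment and 4 did before it (beside 4.38% of all genes).

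**Figure D5:**
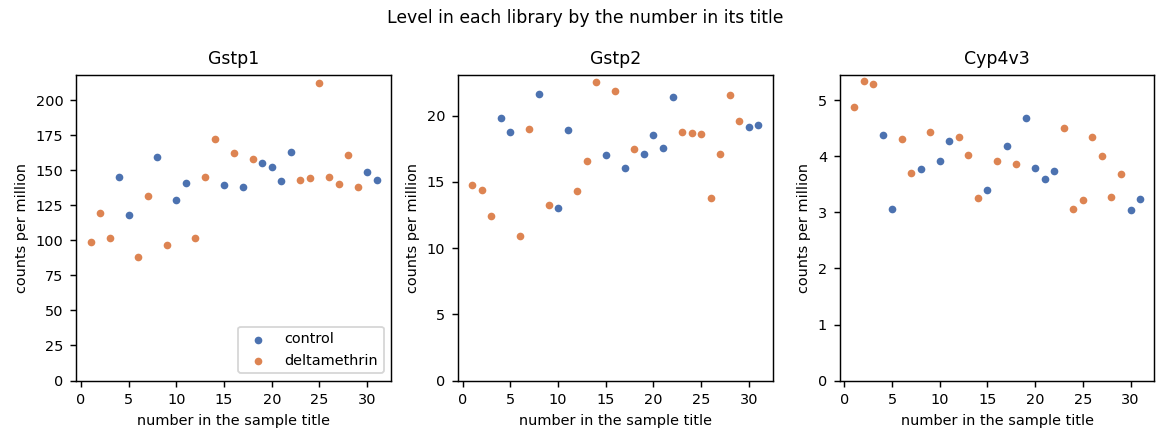
CPM of Gstp1, Gstp2 and Cyp4v3 in each library against the number in its sample title, control in blue and deltamethrin in orange. Gstp1 in the deltamethrin libraries is at 87.8 to 131.4 for numbers 1 to 10 and at 138.2 to 212.1 for numbers 21 to 31, and Cyp4v3 lies between 3.07 and 4.51 in deltamethrin at the latter and between 3.71 and 5.35 at the former.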

How the data were processed

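Total RNA of mouse brain tissue was sequenced in 31 libraries, grouped by their agent label. The authors deposited raw counts, 1 whole number per Ensembl gene and library, not normalized. Per the submitters' processing notes, Trimmomatic, HISAT2, SAMtools and MultiQC were used with GRCm38; the counting tool, annotation and use of strand are not given in the sources used here, so reads of a gene and of an antisense gene (8 members overlap one) may not be separable. Coordinates and exon lengths are those of GENCODE M21.

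Groups were compared with edgeR 4.0.16 (R 4.3.3): filterByExpr (minimum count 10, total 15), TMM factors, quasi-likelihood F-test with robust estimation and Benjamini-Hochberg adjustment over 19529 genes. Standard errors were taken from the F statistic and the fold change, and 95% intervals use 29 degrees of freedom. CPM and RPKM were computed on TMM-scaled library sizes. For log2 CPM a prior count of 2 was added. A marker score is the mean log2 CPM of a list. Correlations used 100000 permutations, adjusted over 490 pairs. Calls were recomputed with RLE, upper quartile and no factors, other filters, covariates, limma voom 3.58.1, DESeq2 1.42.0 and without each library. The scripts were tested on simulated data.

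Named members were those with an unadjusted p under 0.05, the 2 highest per length of each role, the smallest p of each family and the 6 strongest marker relations, at most 2 per marker list. Members, lists and rules were chosen with earlier results of these data known. Other genes named were chosen after their values were seen. Replicates were numbered in accession order.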

Additional observations from a re-analysis of the deposited data

How the results depend on the processing

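The count of members with an adjusted p under 0.05 was 0 in the 10 alternative fits and the 31 fits without 1 library, as was that of the partner genes. The smallest adjusted p of a member was 0.370, with the mitochondrial share as a covariate. Members with an unadjusted p under 0.05 numbered 2 to 4 over the alternatives and 2 to 5 without 1 library, 5 without deltamethrin replicate 4 or 8. Fmo2 and Cyp39a1 kept their direction and an unadjusted p under 0.05 in all 41 fits. The median log2 fold change ran from -0.02 to 0.04 over the alternatives, the latter without scaling factors.

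Values near 0 changed sign. Without factors Ahr was 0.030, Fmo1 0.000144 and Gsta3 0.035. Gsta3 was also 0.0040 without a count filter, 0.010 with the mitochondrial share and 0.016 with the choroid plexus score as a covariate, 0.058 in limma voom and 0.020 with the title number. Without 1 library the ranges were -0.066 to 0.016 for Ahr, -0.078 to 0.12 for Ces5a, -0.013 to 0.036 for Cyp20a1, -0.025 to 0.27 for Cyp2r1, -0.073 to 0.0071 for Fmo1, -0.074 to 0.13 for Gsta3 and -0.085 to 0.0099 for Por.

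Of the 490 pairs with marker lists, 23 were called within control and 50 within deltamethrin, where fewer libraries were used, 207 without factors, 60 without the 2 libraries farthest from the median score and 8 with the mitochondrial share taken out. No share over all genes was computed for these settings. The 6 pairs of Gstm5 and Cyp26b1 kept their sign in each of these. With the mitochondrial share taken out none was called, and Cyp26b1 missed the threshold within control for astrocytes and neurons and within deltamethrin for blood. Members called on the title number were 0 within either group, 5 without control replicate 2 and 6 with the mitochondrial share as a covariate, while RLE factors gave Gstp1 and Cyp4v3 as in the reported fit and no factors gave 2, Gstp1 and Cyp27a1. Apart from the settings with fewer libraries, the cause was not tested.

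No paired analysis was possible because no label links a control sample with a deltamethrin sample. Depth limits the lowest genes: 8 members had a median under 1 CPM over the libraries.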
